A study of Mus musculus with 6 samples.

Results

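Circular RNAs (circRNAs) of 4 genes that encode DNA-binding regulators of transcription, Zfp426, Foxp1, Hic2 and Tead2, were described in mouse bone marrow neutrophils. They were chosen by their host gene from the study's lists of 453 circRNAs that passed a 1.5-fold difference between diabetic (db) and non-diabetic (non-db) pools, 206 of them higher and 247 lower in db. Each host gene had 1 circRNA in these lists, so the members numbered 4 of 453 listed circRNAs and 4 of 14236 circRNA probes on the array. All 4 were in the list of circRNAs higher in db, so their direction and their place above 1.5-fold were what selected them. Their differences between db and non-db are given below as a description, with no test.

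The mice came from the BKS.Cg-Dock7m +/+ Leprdb/J stock, supplied as Lepr db/db animals, which lack the leptin receptor signal, become obese and develop diabetes, and as Lepr db/+ animals. The labels name the groups only as db and non-db. All were male and 8 weeks old. Pools 4, 5 and 6 were db and pools 1, 2 and 3 non-db, with 3 mice in each pool, and the labels name no treatment. Neutrophils were taken from the marrow with beads against Ly-6G, their RNA was digested with RNase R to remove linear transcripts, and the rest was labelled with Cy3 and hybridised to 1-colour arrays. Because a pool is a mixture of cells, a lower level per cell and fewer cells carrying a transcript cannot be told apart. The number of arrays, 3 a group, limits the precision of every value.

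A circRNA forms when the spliceosome joins the end of an exon back to the start of the same or an earlier exon, which leaves a closed ring that exonucleases such as RNase R cannot attack from an end. Such rings can persist in cells longer than the linear messenger RNA of the same gene, and some bind microRNAs. Zfp426 encodes a KRAB zinc finger protein, a class that mostly represses transcription. Foxp1 encodes a forkhead repressor known from lymphocyte and monocyte development, Hic2 a BTB zinc finger repressor, and Tead2 a TEA-domain factor that carries the co-activators YAP and TAZ of the Hippo pathway onto DNA. The circRNAs were mmu_circRNA_43813 (Zfp426, chromosome 9), mmu_circRNA_40615 (Foxp1, chromosome 6) and mmu_circRNA_015487 (Tead2, chromosome 7), all classed as exonic, and mmu_circRNA_29357 (Hic2, chromosome 16), classed as sense overlapping. Probes of such arrays are placed on the back-splice junction, so they read the ring and not the level of the encoded protein.

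On these arrays, the paper reported the circRNA of Tead2 among those significantly increased in neutrophils of db mice. No p-value of a member is given here, since the lists selected on the same contrast. By quantitative PCR, the paper also reported the circRNA of Hic2 as significantly higher in neutrophils of db mice. Those PCR values were not analysed here. That circRNA was among those that the study examined for predicted sites of a microRNA. That microRNA is shown because its seed, the stretch that pairs with a target, defines what such a site would have to contain. The mature sequence is from RefSeq (GRCm38.p6, chr2:94241376-94241397, minus strand), with bases 2 to 8, the seed, in capitals.
mmu-miR-129-2-3p: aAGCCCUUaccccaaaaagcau
Among the mature mouse microRNAs of the same table, 1 name carried this seed. The circRNA sequences themselves were not analysed here, so no site is printed.

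A circRNA is cut from the transcript of its host gene, and the start of that transcript is set at the promoter. RefSeq gave 1 promoter window each for Zfp426, Hic2 and Tead2 and 3 for Foxp1, every window running from 250 bases before to 50 bases after a transcript start. After these windows had been read, the cAMP response element TGACGTCA, which reads the same on both strands, was found in the windows of Zfp426 and Hic2. It was in none of the windows of Foxp1 or Tead2. Whether the element bears on the circRNA signal was not tested. Both windows are shown for this shared element, which is in capitals (RefSeq, GRCm38.p6, 5′ to 3′ on the gene's strand). The window of Zfp426 is chr9:20492697-20492996 on the minus strand, and that of Hic2 is chr16:17233337-17233636 on the plus strand.
Zfp426: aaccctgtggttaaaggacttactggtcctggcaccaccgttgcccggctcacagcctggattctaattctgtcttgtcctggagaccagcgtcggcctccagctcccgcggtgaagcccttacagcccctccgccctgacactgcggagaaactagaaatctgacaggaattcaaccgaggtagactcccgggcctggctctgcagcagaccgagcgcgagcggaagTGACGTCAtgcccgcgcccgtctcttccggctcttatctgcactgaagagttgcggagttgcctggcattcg
Hic2: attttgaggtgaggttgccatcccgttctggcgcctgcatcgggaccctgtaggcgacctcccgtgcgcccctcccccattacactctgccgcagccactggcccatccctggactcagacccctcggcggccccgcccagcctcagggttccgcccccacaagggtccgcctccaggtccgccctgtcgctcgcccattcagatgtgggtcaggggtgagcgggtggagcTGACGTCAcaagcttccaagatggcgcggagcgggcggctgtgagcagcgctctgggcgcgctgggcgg
The element ended 14 bases before the Zfp426 start and 11 bases before the Hic2 start. Of 32851 promoter windows of this length, 588 (1.79%) held it. The core letters bound by forkhead proteins, TGTTTAC or GTAAACA on the other strand, were in 1199 windows (3.65%) and in none of the 6 member windows. The core bound by TEAD proteins, CATTCC or GGAATG on the other strand, was in 4817 windows (14.7%) and in 1 of the 3 Foxp1 windows. These matches are descriptions of letters in a window.

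All 4 circRNAs showed the same arrangement of the pools: db pool 4 was the highest, db pool 5 came next, and both lay above every non-db pool, while db pool 6 lay within or under the non-db range. Values are on the deposited log2 scale, where 1 unit is a doubling, and are written for pools 1, 2 and 3 (non-db) and then pools 4, 5 and 6 (db). The circRNA of Zfp426 read 9.15, 8.97 and 8.94 in the non-db pools and 15.75, 13.64 and 8.31 in the db pools. The non-db pools were close together, pools 4 and 5 were far above them, and pool 6 was 0.63 units under the lowest of them, so the groups overlapped in rank. The group means were 12.57 ± 3.83 in db and 9.02 ± 0.11 in non-db (SD, n = 3 each), a difference of 3.55 on the log2 scale or 11.7-fold. Against the non-db mean, the signal was 106-fold in pool 4, 24.5-fold in pool 5 and 0.612-fold in pool 6. The fold between the group means therefore described none of the 3 db pools.

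The circRNA of Foxp1 read 7.62, 7.97 and 7.65 in the non-db pools and 11.18, 10.64 and 7.60 in the db pools. Pools 4 and 5 were within 0.54 units of each other, the closest of the 3 circRNAs with large differences, and pool 6 was only 0.01 units under the lowest non-db pool. The means were 9.81 ± 1.93 in db and 7.74 ± 0.20 in non-db (SD, n = 3 each), a difference of 2.06 or 4.18-fold. Pool 4 stood at 10.8-fold, pool 5 at 7.44-fold and pool 6 at 0.908-fold of the non-db mean.

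The circRNA of Hic2 read 6.88, 7.24 and 7.04 in the non-db pools and 10.67, 8.94 and 6.48 in the db pools. Here pool 4 was 1.73 units above pool 5, and pool 6 was 0.40 units under the lowest non-db pool. The means were 8.70 ± 2.10 in db and 7.05 ± 0.18 in non-db (SD, n = 3 each), a difference of 1.64 or 3.12-fold. The 3 db pools stood at 12.2-fold, 3.68-fold and 0.674-fold of the non-db mean.

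The circRNA of Tead2 read 8.29, 7.94 and 7.49 in the non-db pools and 8.97, 8.63 and 7.99 in the db pools. Its order of db pools was that of the other members, but pool 6 lay inside the non-db range and the distances were much smaller. The means were 8.53 ± 0.50 in db and 7.91 ± 0.40 in non-db (SD, n = 3 each), a difference of 0.62 or 1.54-fold. Pools 4, 5 and 6 stood at 2.09-fold, 1.66-fold and 1.06-fold of the non-db mean. This circRNA sat close to the limit of the list. The probe just inside the 1.5-fold limit was that of mmu_circRNA_24218 (Nsf), with a log2 difference of 0.587, and the one just outside was the unnamed ASCRP4000252, with 0.585.

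**Figure D1:**
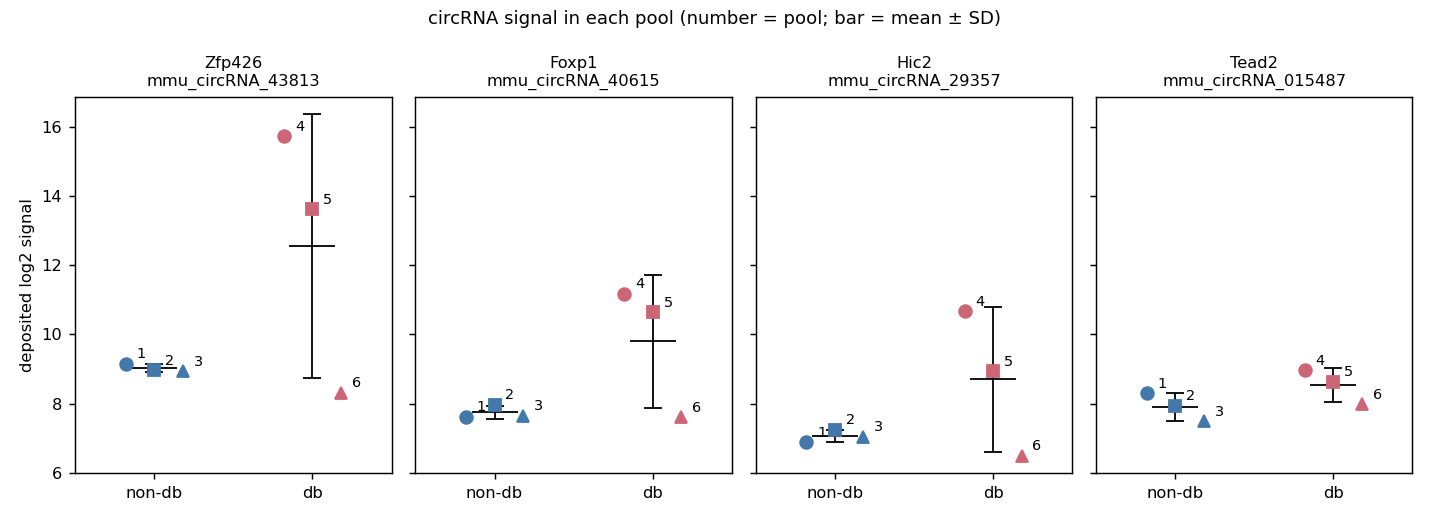
Deposited log2 signal of the 4 circRNAs (vertical axis) in the 3 non-db pools (blue) and the 3 db pools (red), with the pool number beside each point and bars for mean ± SD (n = 3). In each panel pools 4 and 5 lie above all non-db pools and pool 6 does not, and the panel of Zfp426 spans the widest range, from 8.31 to 15.75.

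Over the whole array, 206 of 12722 probes kept after a filter on dim spots (1.62%) were more than 1.5-fold higher in db, and 246 were more than 1.5-fold lower. The 4 members count among the 206 because the lists selected on this difference, so nothing is read from their share. No probe had an adjusted p under 0.05 in limma on all 6 pools (0 of 12722, Benjamini-Hochberg), and 205 had an unadjusted p under 0.05. An unpaired test of means, the form that the paper's methods name, likewise gave 0 after Benjamini-Hochberg adjustment and 274 before it. These counts are not taken as those of the test behind the listed p-values, which were matched here with pools paired in order.

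The selection used group means and did not set which db pool was high. Pool 4 was the highest of all 6 pools for 29.4% of the 12722 kept probes, and for 192 of the 206 listed as higher (93.2%). The arrangement of the members, with pools 4 and 5 above all non-db pools and pool 6 not, was found in 5.55% of kept probes and in 169 of the listed 206 (82.0%). Pool 6 lay under all non-db pools for 71 of the 206 (34.5%), as it did for the circRNAs of Zfp426, Foxp1 and Hic2. The pattern of the 4 circRNAs was thus the one that most of the list shared, and nothing in it is called particular to them.

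The spread between db pools was wide for 3 of the 4. The SD of the db pools was larger than that of 99.98% of kept probes for Zfp426, 99.9% for Hic2 and 99.8% for Foxp1, and larger than that of 90.7% for Tead2. In the non-db pools the corresponding shares were 21.8%, 45.2%, 51.2% and 87.2%. Thus, against all kept probes, the circRNAs of Zfp426, Hic2 and Foxp1 were ordinary in non-db spread and extreme in db spread. That of Tead2 varied widely in both groups. The kept probes were not selected for a high db mean, and a mean raised by pools 4 and 5 alone gives a wide db spread. The db SD was also the larger for 9 of 9 other listed transcription factor circRNAs higher in db (median 0.97 against 0.13). Over all kept probes the median SD was 0.186 in db and 0.192 in non-db, and the db SD was the larger for 48.6% of probes.

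**Figure D2:**
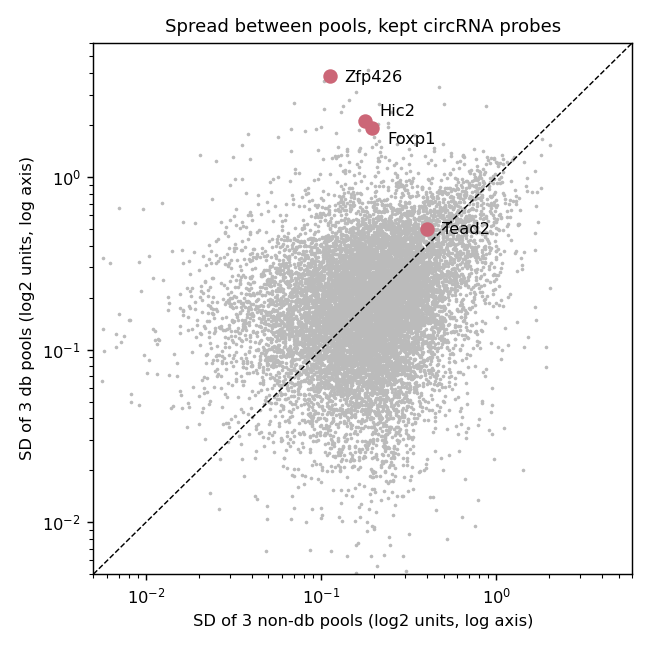
SD between the 3 db pools (vertical axis, log2 units on a log axis) against SD between the 3 non-db pools (horizontal axis, same scale) for the kept circRNA probes within these axes (grey), with the 4 circRNAs in red and a dashed line of equal SD. Zfp426 (3.83 against 0.11), Hic2 and Foxp1 lie at the top of the cloud, and Tead2 (0.50 against 0.40) lies near the line.

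In order of brightness on each array, the circRNA of Zfp426 was the 20th of 14236 probes in pool 4 and the 91st in pool 5, against position 1905 in pool 6 and positions 1162 to 1296 in the non-db pools. The circRNA of Foxp1 moved from positions 2381 to 2931 in the non-db pools to position 374 in pool 4 and 497 in pool 5, and stood at 2949 in pool 6. The circRNA of Hic2 was at position 491 in pool 4, 1291 in pool 5 and 5482 in pool 6, against 3638 to 4405 in the non-db pools. For Tead2 the positions were 1294, 1574 and 2332 in pools 4, 5 and 6, against 1968 to 3162. These positions compare pools for 1 probe at a time and do not rank the circRNAs by abundance, since probes differ in how strongly they bind.

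The scanner readings behind these values were complete for pools 2 to 6. That of pool 1 was cut short, with 2199 of 14236 circRNAs and none of the 4 members. The scanner's processed signal, before any normalization between arrays, was 387 and 443 in non-db pools 2 and 3 for the circRNA of Zfp426, and 37299, 13753 and 338 in db pools 4, 5 and 6. For Foxp1 it was 204 and 190 in pools 2 and 3 and 1625, 1696 and 194 in pools 4, 5 and 6. Before normalization pool 5 was therefore slightly above pool 4 for Foxp1, by less than the scanner's own error, the reverse of the deposited order. For Hic2 the signal was 112 in both pools 2 and 3, and 1285, 555 and 79.1 in pools 4, 5 and 6. For Tead2 it was 183 and 176 in pools 2 and 3 and 430, 430 and 259 in pools 4, 5 and 6. Against the mean of pools 2 and 3, the raw readings of pools 4 and 5 were 89.8 and 33.1 times as high for Zfp426, 8.24 and 8.60 for Foxp1 and 11.4 and 4.94 for Hic2. For Tead2 both were 2.40 times as high, and pool 6 was 1.45 times as high.

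**Figure D3:**
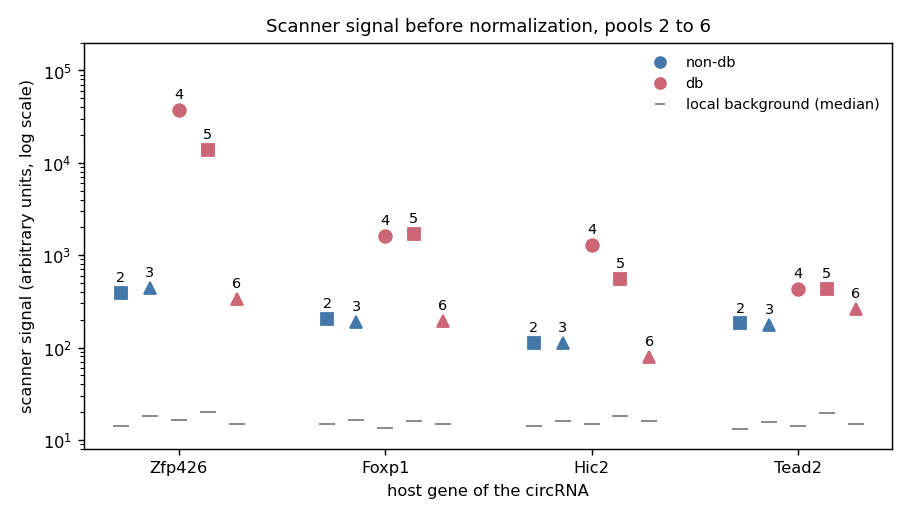
Processed scanner signal of the 4 circRNAs (vertical axis, arbitrary units on a log axis) in pools 2 to 6, with the pool number above each point, non-db in blue, db in red and the median local background of each spot as a grey dash. Pools 4 and 5 stand above pools 2 and 3 for every circRNA, and all signals stand above backgrounds of 13 to 20 units.

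All 20 spots of the members on the 5 complete arrays were called well above background by the scanner software, none was saturated and none carried a flag on the spot itself. The ratio of spot to local background ran from 6.0 for Hic2 in pool 6 to 2171 for Zfp426 in pool 4. In 1 spot, Zfp426 in pool 4, the local background was flagged as an outlier, at a level of 16.5 against a spot signal of 35817. The scanner software's own error was at most 10.1% of the signal for every spot. It covers the reading of 1 spot and not the spread between pools. The 21 circRNA spots around that of Zfp426 had a median deviation from their own means of -0.02 on the log2 scale in pool 4, against 4.63 for the Zfp426 spot itself. For Tead2 the 24 spots around it deviated by -0.22 in pool 3 and 0.15 in pool 4, in the same directions as the Tead2 spot (-0.72 and 0.77). In pools 5 and 6 the directions were opposite. For Foxp1 the directions matched on every complete array, with 0.11 around it in pool 4 against 2.17 for the spot itself. For Zfp426 and Hic2 they matched on some arrays and not on others. The part of this in the member differences was not tested.

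Several technical labels ran along with single pools. Pools 1 and 4 were scanned in 1 session and pools 2, 3, 5 and 6 in another, and pools 1 to 4 lay in the first row of array positions while pools 5 and 6 lay in the second. Within the first session, pool 4 exceeded pool 1 by 6.60 for Zfp426, 3.57 for Foxp1, 3.78 for Hic2 and 0.67 for Tead2. Within the second session, where pools 5 and 6 were set against pools 2 and 3, the differences were 2.02, 1.31, 0.57 and 0.60 in the same order. Every difference was positive in both sessions, and that of Hic2 in the second session was under 1.5-fold. In the first row of positions, where pool 4 was the only db pool, the differences were 6.73, 3.44, 3.61 and 1.06. The second row held db pools only, so row and group cannot be told apart there. The part of session or position in the differences was not tested.

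Single pools set the size of the differences. Without pool 4 they were 1.95 for Zfp426, 1.38 for Foxp1, 0.66 for Hic2 and 0.40 for Tead2. Without pool 6 they were 5.67, 3.17, 2.75 and 0.90. For Tead2 the difference was under 1.5-fold without pool 3 (0.41), without pool 4 (0.40) or without pool 5 (0.57). Zfp426, Foxp1 and Hic2 passed 1.5-fold with any 1 pool left out. Set against each other in pool order, a pairing that the labels do not give, Tead2 was higher by 0.67 in pool 4 than in pool 1, by 0.70 in pool 5 than in pool 2 and by 0.50 in pool 6 than in pool 3. For Zfp426, Foxp1 and Hic2 the difference of pool 6 from pool 3 was -0.63, -0.04 and -0.55.

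**Figure D4:**
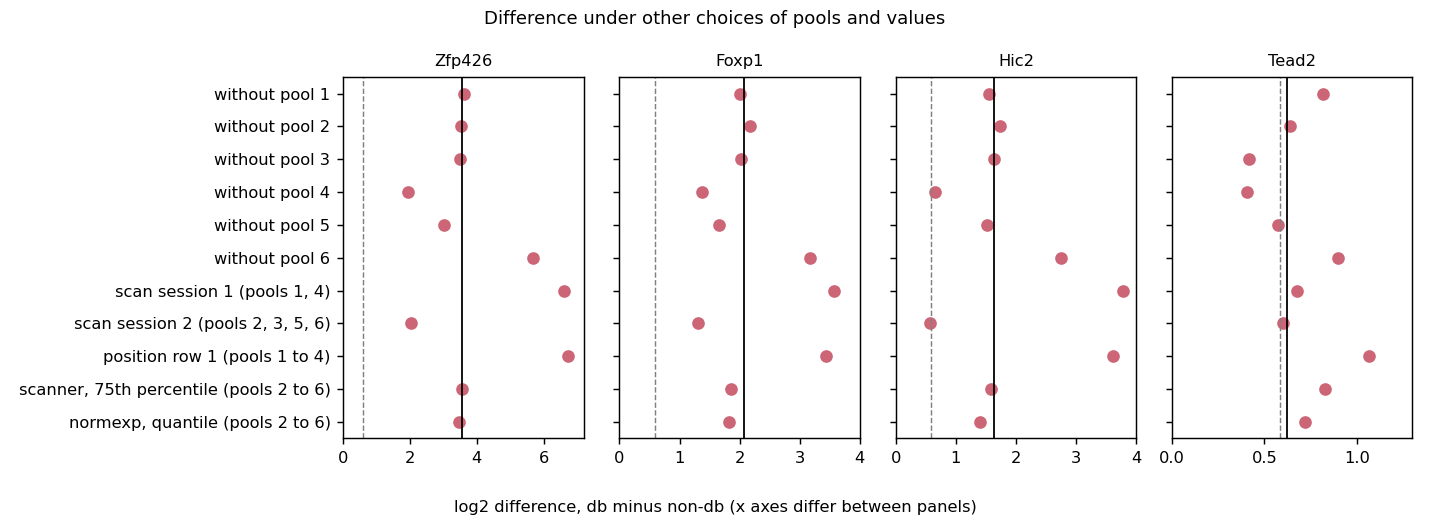
Log2 difference between db and non-db (horizontal axis, its range differing between panels) of each circRNA with 1 pool left out, within a scan session, within the first row of array positions and in scanner values of pools 2 to 6. The solid line marks the value over all 6 pools, the dashed line 1.5-fold. Every point is above 0, the points without pool 4 lie to the left of the solid line and the points of scan session 1 to its right.

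The pool values of the members were alike. Over the 6 pools, Pearson's r was 0.988 between Zfp426 and Foxp1, 0.986 between Zfp426 and Hic2 and 0.964 between Foxp1 and Hic2. With Tead2 it was 0.875, 0.862 and 0.837 for Zfp426, Foxp1 and Hic2. The median over the 6 pairs was 0.92, and 0.88 after the group means had been removed. The second value is set mainly by the db pools. Among the non-db pools no single order held for all members. Zfp426 and Tead2 were highest in pool 1 and lowest in pool 3, and Foxp1 and Hic2 were highest in pool 2 and lowest in pool 1. These r values are descriptions over 6 pools that share arrays and normalization, and for Zfp426, Foxp1 and Hic2 they rest mainly on pools 4 and 5.

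Many other probes followed the same course. Of 12720 probes compared, 170 had an r over 0.95 with Zfp426, 115 with Foxp1, 216 with Hic2 and 54 with Tead2. The probes most like Zfp426 were those of mmu_circRNA_33908 (Rbm45, an RNA-binding protein), the unnamed ASCRP4003881, and mmu_circRNA_30880 (Lclat1, a lysocardiolipin acyltransferase). Those most like Foxp1 were mmu_circRNA_38402 (Yes1, a Src-family kinase), mmu_circRNA_45592 (locus XLOC_027202) and mmu_circRNA_39944 (Snd1, a nuclease-domain protein). Those most like Hic2 were mmu_circRNA_28348 (March6, a ubiquitin ligase), mmu_circRNA_29625 (Pdia5, a protein disulfide isomerase) and mmu_circRNA_45509 (Mtmr1, a phosphoinositide phosphatase). For Tead2 the nearest were 3 probes that the lists do not name, ASCRP4011515, ASCRP4004593 and ASCRP4004696.

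The likeness was one of shape more than of size. mmu_circRNA_29625 (Pdia5) read 8.72, 8.87 and 8.67 in non-db pools and 15.14, 11.88 and 7.98 in db pools, a wider range than that of the Hic2 circRNA it followed (r = 0.998). mmu_circRNA_33908 (Rbm45) followed Zfp426 with r = 0.999, but read 8.09, 8.04 and 8.10 in non-db pools and only 9.49, 9.02 and 7.91 in db pools. The host genes of these probes lie on chromosomes 2, 17, 5, X, 6, 15 and 16, and Snd1 (chromosome 6) and Pdia5 (chromosome 16) share a chromosome with the member they followed.

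The same lists held 25 circRNAs of 23 other genes for sequence-specific transcription factors. Of these, 9 from 9 genes were higher and 16 from 14 genes lower in db, again as selected. The 9 higher ones resembled the members in the order of their db pools, with pool 4 above pool 5 and pool 5 above pool 6. Pool 5 also lay above every non-db pool, except for Zfhx3 (12.45 against 12.85 in non-db pool 1). Pool 4 was the highest pool for 9 of 9, their median SD was 0.97 in db and 0.13 in non-db, and 1 of the 9, Zfp462, was still past 1.5-fold without pool 4. The groups did not overlap for 2 of the 9, Glis3 and Tfcp2, and they overlapped for all 4 members. For Glis3 and Tfcp2, pool 6 was nearly level with the highest non-db pool (6.484 against 6.454 and 6.395 against 6.391). All db pools lay above all non-db pools in 3.96% of kept probes and in 20 of the 206 listed as higher (9.71%), so these small counts are not read as a difference. Of the 16 lower ones, pool 4 was the lowest pool for 12, the db SD was the larger for 7, and 3 were past 1.5-fold without pool 4. Leaving out pool 3 gave 5 higher and 9 lower past 1.5-fold, and leaving out pool 2 gave 8 lower.

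mmu_circRNA_36807 (Zfp462, a zinc finger factor) came closest to the members in size, with 6.16, 6.29 and 6.24 in non-db pools and 9.99, 8.03 and 6.21 in db pools. Its difference of 1.84 lay between those of Foxp1 and Hic2, and its pool 6 was level with the non-db pools. mmu_circRNA_28595 (Trps1, a GATA-type repressor) read 6.05, 5.45 and 5.67 against 7.61, 6.53 and 5.49, a difference of 0.82. mmu_circRNA_25331 (Hif1a, the oxygen-regulated subunit of hypoxia-inducible factor) read 5.97, 5.72 and 5.84 against 7.80, 6.98 and 5.20, a difference of 0.81. Like Zfp426 and Hic2, Hif1a had pool 6 under every non-db pool and pools 4 and 5 above them.

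Among the lower ones, circRNAs of other forkhead genes differed from that of Foxp1 in direction. mmu_circRNA_21887 (Foxo3, a forkhead factor restrained by insulin signalling) read 10.10, 9.94 and 11.82 in non-db pools and 9.81, 9.81 and 10.30 in db pools, a difference of -0.64 with non-db pool 3 far above the other pools. The circRNAs of Foxn2, mmu_circRNA_19203 and mmu_circRNA_31117, had differences of -0.61 and -0.60. For mmu_circRNA_19203 the db pools read 6.47, 7.85 and 7.79, so pool 4 alone stood apart, and without it the difference was -0.16. For mmu_circRNA_31117 it was -0.11 without pool 4. So the pool that was high for Foxp1 was low for Foxn2.

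mmu_circRNA_29990 (Bach1, a repressor of haem and redox genes) was the one lower circRNA whose groups did not overlap, with 9.06, 8.51 and 10.02 in non-db pools and 8.49, 8.24 and 8.36 in db pools, a difference of -0.84. Its spread lay in the non-db pools (SD 0.76 against 0.13 in db), the reverse of the members. mmu_circRNA_29992, also of Bach1, had a difference of -0.58. The largest lower differences were -0.87 for mmu_circRNA_40239 (Zfp282, a zinc finger repressor) and -0.84 for mmu_circRNA_018293 (Rlf, a zinc finger factor).

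**Figure D5:**
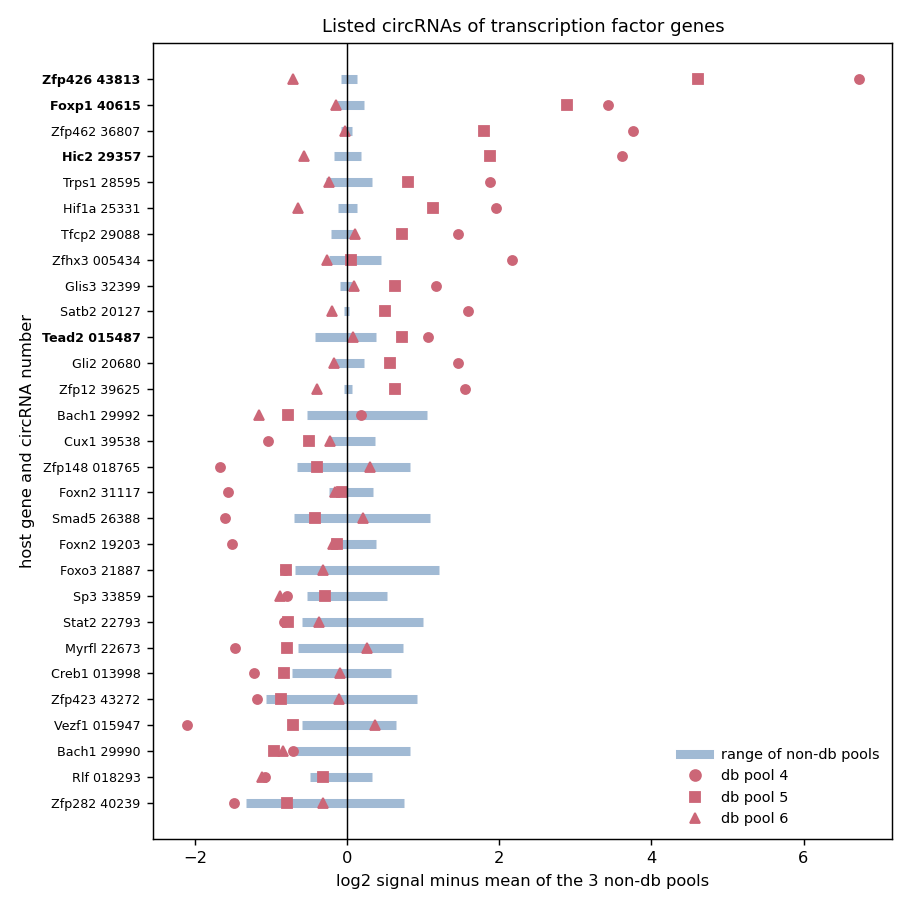
Log2 signal of each db pool minus the mean of the 3 non-db pools (horizontal axis) for the 29 listed circRNAs of transcription factor genes, sorted by the group difference (vertical axis, the 4 members in bold), with the range of the non-db pools as a blue bar. In the upper 13 rows, those of circRNAs higher in db, pool 4 (circle) is farthest right, and in most lower rows it is farthest left.

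The labelled cell type could not be checked on these arrays. Of 12 neutrophil marker genes looked for, 0 had a probe for the linear transcript, and 1, Itgam, had a circRNA in the lists. That circRNA, mmu_circRNA_42341, was lower in db, with 9.20, 9.60 and 10.15 in non-db pools and 8.06, 9.63 and 9.30 in db pools (a difference of -0.65, with SDs of 0.83 in db and 0.48 in non-db, n = 3 each). Its lowest value was in pool 4, where the 4 members were highest. None of the 14 markers of B cells, T cells, monocytes and erythroid cells had a linear probe or a listed circRNA. The part of the cell make-up of the pools in these differences was not tested.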

How the data were processed

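circRNA was measured on Arraystar mouse arrays in 3 db and 3 non-db pools. Scanner intensity, read with Agilent Feature Extraction 11.0.1.1, was deposited by the authors without normalization between arrays. The log2 values of the series were deposited by the authors after normalization, per the labels with limma, by a method not given in the sources used here. They were used for all 6 pools, because the scanner file of pool 1 was partial. Groups were taken from sample titles. Members were linked to probes where the difference of group means gave the listed fold within 0.001%, so the folds are no separate check of those lists. Any tie between probes was settled by how near a t-test paired in pool order came to the listed p-value. The members and lists were chosen with earlier results of these data known.

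Probes were kept if flagged as well above background on 3 or more of the 5 complete arrays (12722, leaving out 1514). Fold changes are differences of mean log2 values, with a limit of 1.5-fold. limma 3.58.1 (R 4.3.3, lmFit and eBayes, two-sided, Benjamini-Hochberg over kept probes) was checked on simulated data. The p-values set the group difference against the spread between pools of a group and take the pools as independent. No source says that pools were independent beyond their mice. Named circRNAs were the members, the 3 probes most like each by Pearson's r, and for other transcription factor genes the 2 largest differences each way plus Foxn2, Foxo3, Hif1a and Bach1. Glis3, Tfcp2, Zfhx3 and Itgam were named after their values were seen. Alternatives were scanner values under 75th percentile scaling or quantile normalization, normexp (offset 50) with quantile normalization, other filters and group summaries. Others were scan sessions, array positions, pools paired in order, an unpaired t-test and each pool left out. Plots were drawn with matplotlib 3.10.9 (Python 3.11.15). The array design names another genome build than RefSeq, so circRNA positions are given by chromosome only.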

Additional observations from a re-analysis of the deposited data

How the results depend on the processing

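All 68 alternative values of the member differences were positive, 64 of them past 1.5-fold. The exceptions were Tead2 without pool 3, 4 or 5 and Hic2 within the second scan session. The members were selected for this direction and size in the same pools, so these counts are no support for the differences. With scan session or pool pairs as a block, the design is balanced and returns the main differences exactly. Within the first scan session the differences of Zfp426, Foxp1 and Hic2 moved to 6.60, 3.57 and 3.78, and within the first row of array positions, an alternative added after seeing the data, to 6.73, 3.44 and 3.61, since pool 4 is the only db pool in both. With each pool left out, the count of probes over 1.5-fold higher (206) ranged from 66 (without pool 4) to 457 (without pool 6), that of adjusted p under 0.05 in limma (0) from 0 to 2 and that of unadjusted p (205) from 117 (without pool 4) to 583 (without pool 6), with 456 without pool 2. The other transcription factor circRNAs past 1.5-fold (9 higher, 16 lower) numbered between 1 and 9 higher and between 3 and 15 lower. Scanner values of pools 2 to 6 gave 321 higher and 1261 lower (75th percentile scaling), 293 and 1411 (the same over detected probes), 590 and 830 (quantile normalization) and 155 and 219 (normexp), against 251 and 359 in the deposited values of the same pools and 206 and 246 in all 6. The share of higher calls was 20.3%, 17.2%, 41.5% and 41.4%, against 41.1% and 45.6%. The scan session as a block gave 326 unadjusted p under 0.05. The labels give db and non-db pools no shared replicate numbers, but pairing in pool order was also what settled ties against the listed p-values. With pools 1 and 4, 2 and 5, and 3 and 6 as a replicate block, a pairing added after seeing the data, limma gave 316 unadjusted and 0 adjusted p under 0.05, and the member differences were the same. Apart from the pools that each setting leaves out, the cause was not tested. Spots of pool 1 had no scanner reading for the members, which limits the checks on signal over background to 5 arrays.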
